A study of Bruguiera gymnorhiza with 19 samples.

Results

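Of 11997 mangrove probes on the array, 131 were lower in leaves after 6 h and after 24 h in sorbitol than before treatment and did not fall in parallel under NaCl. They are the probes that a fixed set of thresholds kept, and were chosen by the measured values themselves. Their level had to reach 9.5 on the log2 scale in the highest of the 6 group means, which 5184 probes did. Both sorbitol differences from 0 h had to be -0.7 or lower, and both NaCl differences had to lie above -0.5. The 131 are 2.53% of the probes at that level.

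The samples were leaves of Burma mangrove (*Bruguiera gymnorhiza*), 3 years and 7 months old, raised in pots from seeds collected in the wild. The culture water was exchanged for 500 mM NaCl or for 1 M sorbitol (spelled Solbitol in the labels), and leaves were frozen at 0 h, 6 h and 24 h of each treatment. The 0 h leaves of each series were untreated, and untreated leaves of the later hours are not part of these comparisons. Each of the 6 groups held 3 samples named A, B and C. The labels call them biological replicates and do not say whether they were separate plants, so the p-values below measure only the spread between these samples. The letters were taken from the titles; the description of NaCl 24 h C names letter A instead, and the results read by letter rest on the titles. A repeat array of the RNA of NaCl 0 h C was kept out of the groups. Levels are log2 of the spot's mean intensity plus 50, made comparable between arrays by quantile normalization. The probes carry clone and contig identifiers and no gene description in the files used here, so the leaf label was not checked against marker genes, and no gene name or role is given for any member. "CL" names a contig, a transcript assembled from several clones, and "Bg" a single clone.

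Mangroves of this family are trees of tidal shores that tolerate salt in their root water. A NaCl solution puts plants under osmotic stress, which makes water harder to take up, and under ionic stress from sodium and chloride. Sorbitol is an uncharged sugar alcohol that lowers the water potential without adding salt ions. The concentrations of the treatments differed, and whether they matched in osmotic strength was not tested.

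The probe sequences of 6 members are shown as the files give them, because these members carried the lowest differences or a tested late change, and a probe can be matched to a transcript by its letters alone. The numbers in a name span the probe's length for 100% of the probes and are read as its first and last base in the clone or contig.
CL192Contig1_771_805: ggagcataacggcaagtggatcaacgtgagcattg
CL720Contig1_369_403: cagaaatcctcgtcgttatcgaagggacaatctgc
Bg02-08_J10_401_435: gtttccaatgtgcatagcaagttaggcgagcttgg
CL54Contig1_242_276: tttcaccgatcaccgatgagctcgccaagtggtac
Bg02-10_N01_497_531: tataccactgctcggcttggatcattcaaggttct
Bg05-18_B05_17_51: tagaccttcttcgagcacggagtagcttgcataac

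Several members shared bases with another probe on the array, which allowed the same transcript, or a close relative, to be read at a separate spot. The pairs below are shown because their differences are set side by side further on; capitals mark the longest run of letters that both probes of a pair have in common.
Bg02-07_B21_486_520: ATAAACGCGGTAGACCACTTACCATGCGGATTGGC
CL805Contig1_486_520: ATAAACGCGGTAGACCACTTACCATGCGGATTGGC
CL657Contig1_544_578: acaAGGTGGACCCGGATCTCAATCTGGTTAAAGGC
Bg05-20_P14_544_578: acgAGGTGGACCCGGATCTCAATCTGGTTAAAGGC
Bg03-07_M23_378_412: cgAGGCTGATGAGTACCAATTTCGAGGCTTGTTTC
CL635Contig1_386_420: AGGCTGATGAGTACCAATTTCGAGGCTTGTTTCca
Bg02-06_M19_472_507: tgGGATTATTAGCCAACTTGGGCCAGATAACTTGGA
Bg04-22_M21_476_511: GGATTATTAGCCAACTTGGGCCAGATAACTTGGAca
CL6Contig1_28_64: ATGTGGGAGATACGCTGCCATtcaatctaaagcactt
Bg05-12_A06_4_38: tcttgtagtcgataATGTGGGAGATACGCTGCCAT

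The array signal limits what can be said of some samples. The C arrays of NaCl 6 h and of all 3 sorbitol times were the faintest of the set: 2126 to 3216 probes read exactly 0 there, whereas at most 82 did on any other array. On sorbitol 24 h C, 45 members were not above the negative control spots and 24 of them had an intensity of 0, so that their value there is a floor. On sorbitol 6 h A, 27 members were not above the negative controls, on sorbitol 24 h B 13, and on each of the other samples 0 to 9. Results are therefore given with and without these samples where they rest on them. The 3 arrays per group limit the precision of every value.

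In the untreated leaves of the sorbitol series the median level of the 131 members was 10.82, 11.12 and 11.03 in samples A, B and C. After 6 h in sorbitol it was 9.16, 9.79 and 10.30, and after 24 h 10.26, 9.89 and 9.04. All 6 treated samples lay below all 3 untreated ones, as the choice of members requires of the means. In the NaCl series the medians were 10.74, 10.39 and 10.44 at 0 h, 10.49, 10.79 and 10.91 at 6 h, and 10.78, 10.90 and 10.79 at 24 h. The median of all probes at the level minimum was 10.26 in every sample. In whole leaves, fewer cells of a type and less RNA per cell cannot be told apart.

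**Figure D1:**
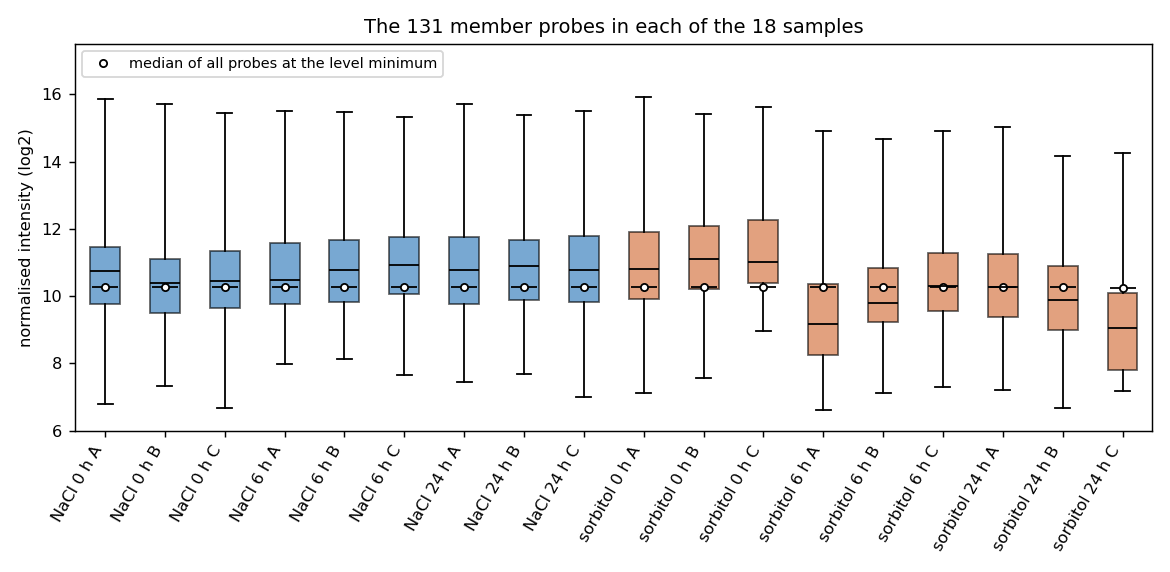
Normalised intensity (log2, vertical axis) of the 131 members in each of the 18 samples (horizontal axis), with NaCl in blue and sorbitol in orange. Boxes span the quartiles with the median as a line, whiskers reach the lowest and highest member, and white points mark the median of all probes at the level minimum; sorbitol 6 h A and sorbitol 24 h C have the lowest medians, 9.16 and 9.04.

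As the plot of the members by sample shows, the samples within the sorbitol 6 h and 24 h groups stood apart from each other more than in the other groups. The median SD between the 3 samples of a group, over the members, was 0.55 at sorbitol 6 h and 0.57 at 24 h, against 0.26 at sorbitol 0 h and 0.29 to 0.37 in the NaCl groups. Over all probes at the level minimum it was 0.33 and 0.26 in the same sorbitol groups. The low samples were largely the same for many members. At 6 h, A was the lowest and C the highest in 71 members (54.2%, against 21.3% of the probes at the level minimum). At 24 h, C was the lowest and A the highest in 61 members (46.6% against 19.1%). Both orders held together in 51 members (38.9% against 4.61%). What lies behind this shared order was not tested.

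Counted sample by sample against the mean of sorbitol 0 h, 119 members lay 0.7 or more below it in sorbitol 6 h A, 96 in B and 64 in C. At 24 h the counts were 70 in A, 104 in B and 123 in C. Below the 0 h mean by any amount were 109 members in the least affected sample at 6 h (C) and 119 in the least affected at 24 h (A). In 32 members all 6 treated samples lay 0.7 or more below the 0 h mean. For 9 of these the highest sorbitol 0 h sample stood at least 1 above the next, so that 1 sample raised the mean they are set against, and 23 remain without them. With sorbitol 6 h A and sorbitol 24 h C left out, 118 members stayed below 0 h at both times, 73 met both sorbitol thresholds, and the median differences were -0.85 at 6 h and -1.03 at 24 h.

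The differences that chose the members are a description and were not tested. From 0 h to 6 h in sorbitol the members' median difference was -1.05 on the log2 scale (range -3.08 to -0.70), against 0.00 over all probes at the level minimum. At 24 h it was -1.30 (range -4.19 to -0.71), against -0.01. In 64 members both differences were -1 or lower, and in 7 both were -2 or lower. Among the 7, Bg05-10_C03_521_555 rests on a lone high sample, with 8.36, 8.22 and 14.35 in A, B and C of sorbitol 0 h. From spot medians its differences were -1.03 and -0.87, and the rule did not keep it. Others with such a sample, such as Bg01-06_I03_225_259 and Bg04-13_K19_281_315, are among the 64. Of the 7, only CL720Contig1_369_403 and Bg02-08_J10_401_435 were above the negative controls in every sample. Bg05-23_A12_641_675, Bg05-21_F18_360_395, Bg02-10_H19_3_37 and Bg02-06_L19_241_275 had an intensity of 0 in sorbitol 24 h C, which is a floor. From spot medians the rule did not keep Bg02-10_H19_3_37. In NaCl the median was 0.11 at 6 h (range -0.50 to 4.20) and 0.23 at 24 h (range -0.47 to 1.89), against 0.02 and 0.04 over all probes at that level. Close to the thresholds, CL1582Contig1_309_343 was inside with -0.70 and -1.28 and Bg01-04_G02_513_547 with -0.95 and -0.71, whereas CL679Contig1_257_291, with -0.71 and -0.698, and Bg03-05_L17_282_316, with -0.77 and -0.69, were just outside.

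**Figure D2:**
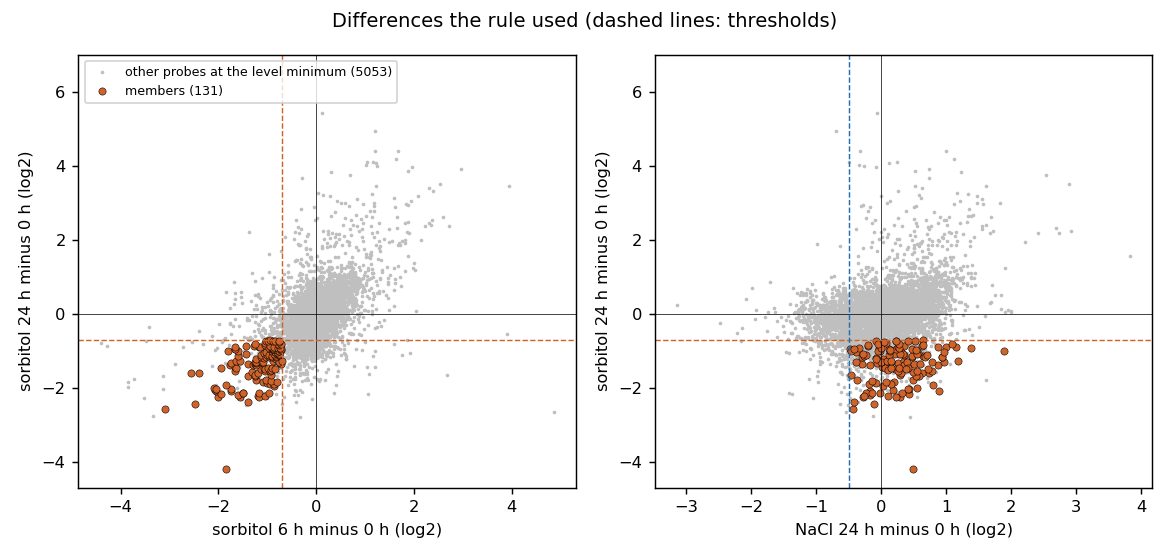
Differences between group means (log2) for the 131 members (orange) and the other probes at the level minimum (grey), with the thresholds as dashed lines. Left, sorbitol 6 h minus 0 h against sorbitol 24 h minus 0 h; right, NaCl 24 h minus 0 h against sorbitol 24 h minus 0 h. The members fill the lower left corner of the left panel, and CL192Contig1_771_805 is the lowest at -4.19.

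The left panel of the plot of rule differences shows most members near their thresholds and a few far from them, and the right panel shows them on both sides of 0 in NaCl. All 3 sorbitol 6 h samples lay below all 3 sorbitol 0 h samples in 81 members; this holds for 9.03% of the probes at the level minimum. At 24 h it was so in 97 members, with 18.7% of the probes at the level minimum. Both times were free of overlap in 72 members, and 25 overlapped at both. These counts come from the contrasts that chose the members, so nothing is read from them.

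The rule was also tried the other way round. With NaCl and sorbitol exchanged it kept 256 probes (4.94% of those at the level minimum). A lasting rise in sorbitol alone was kept for 43 probes (0.829%) and in NaCl alone for 118 (2.28%). All 4 differences were -0.7 or lower in 3 probes. A lasting fall restricted to sorbitol was thus kept more often than the matching rise, and less often than a lasting fall restricted to NaCl; these counts carry no test.

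The 8 members with the lowest mean of both sorbitol differences fell into patterns that their single samples tell apart. CL192Contig1_771_805 measured 13.96, 14.05 and 14.14 in samples A, B and C of sorbitol 0 h, 12.74, 11.69 and 12.18 at 6 h, and 11.44, 8.67 and 9.47 at 24 h. The 3 groups did not overlap, and the level stepped down from each time to the next, with differences from 0 h of -1.85 and -4.19. In NaCl it measured 13.43, 12.97 and 13.74 at 0 h, 13.83, 13.25 and 13.09 at 6 h, and 13.45, 14.33 and 13.83 at 24 h, and the groups overlapped.

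Bg02-08_J10_401_435 measured 13.05, 13.15 and 13.06 in sorbitol at 0 h, 10.36, 10.81 and 10.70 at 6 h, and 11.39, 10.36 and 10.20 at 24 h. The 6 h and 24 h samples were all at least 1 unit below the lowest 0 h sample and overlapped each other (differences of -2.47 and -2.44). In NaCl its 9 samples ran from 11.85 to 13.99 with no order between the times. CL720Contig1_369_403 measured 12.80, 12.88 and 12.30 at sorbitol 0 h, 10.63, 9.51 and 8.59 at 6 h, and 10.91, 9.40 and 9.96 at 24 h. Again no treated sample reached the untreated ones (differences of -3.08 and -2.57). Its sorbitol 0 h mean lay 1.27 above that of NaCl 0 h, where it measured 11.35, 10.94 and 11.87.

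CL173Contig1_771_805, Bg05-23_A12_641_675 and Bg05-21_F18_360_395 carried the shared sample order. CL173Contig1_771_805 measured 13.39, 13.12 and 13.39 at sorbitol 0 h, 9.45, 11.46 and 13.13 at 6 h, and 12.61, 11.81 and 8.97 at 24 h. Its mean differences of -1.96 and -2.17 thus rest mostly on A at 6 h and on C at 24 h, and C at 6 h lay within the range of the untreated samples. Bg05-23_A12_641_675 measured 11.36, 11.76 and 11.88 at 0 h, 8.05, 9.62 and 11.31 at 6 h, and 10.82, 10.30 and 7.18 at 24 h. The value of 7.18 is an intensity of 0 on that array. Bg05-21_F18_360_395 measured 11.02, 11.42 and 11.52 at 0 h, 7.16, 9.60 and 11.002 at 6 h, and 10.73, 9.89 and 7.18 at 24 h. In all 3 probes the same samples were low, and the other treated samples lay nearer to the untreated ones.

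Bg02-06_L19_241_275 measured 9.37, 9.70 and 9.97 at sorbitol 0 h, 6.93, 7.17 and 8.77 at 6 h, and 7.99, 7.60 and 7.18 at 24 h. All treated samples were below the untreated ones. At 6 h only 1 of the 3 samples was above the negative controls, so its level there lies mostly at background. No 24 h sample was above the negative controls, so its level at 24 h is only bounded and was at least 2.57-fold lower than at 0 h. For this bound the 0 h mean was set against the lowest signal that counted as above background on each array, or the probe's own signal if that was higher. By the same bound, Bg05-20_J07_627_661 was at least 3.06-fold, Bg04-28_I16_126_162 at least 3.04-fold and Bg04-10_K05_672_706 at least 2.83-fold lower at 24 h.

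Bg01-06_I03_225_259 owed its place to 1 spot. It measured 9.32, 8.95 and 14.62 at sorbitol 0 h, 8.62, 8.00 and 8.60 at 6 h, and 9.48, 9.02 and 9.58 at 24 h. Thus A at 0 h lay among the 24 h samples, and B at 0 h lay below all of them. On sorbitol 0 h C the mean intensity of the spot was 11878 and its median 454.5; the mean of that spot was far above its median. From spot medians its differences were -1.20 at 6 h and -0.12 at 24 h, and the rule did not keep it. It is among the 9 members with a lone high sorbitol 0 h sample.

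**Figure D3:**
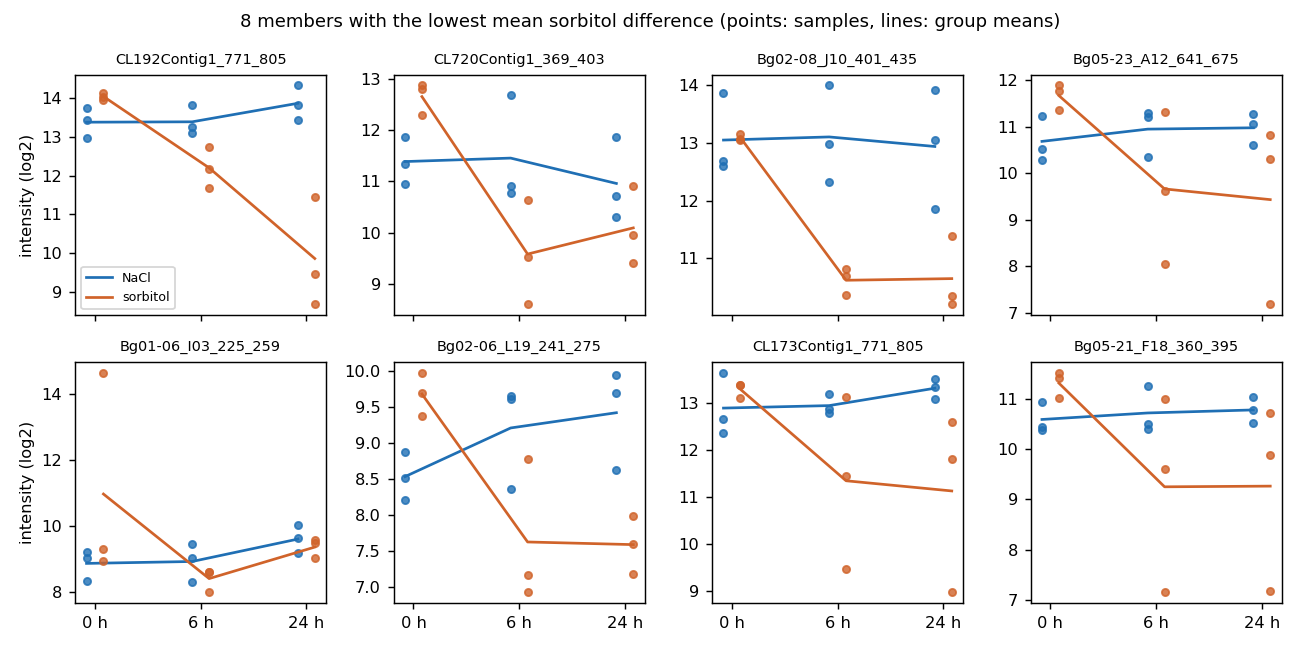
Normalised intensity (log2, vertical axes of each panel's own range) of the 8 members with the lowest mean sorbitol difference at 0 h, 6 h and 24 h; points are the 3 samples of each group, lines join group means, NaCl in blue and sorbitol in orange. CL192Contig1_771_805 steps down at each time, CL173Contig1_771_805, Bg05-23_A12_641_675 and Bg05-21_F18_360_395 spread widely after treatment, and Bg01-06_I03_225_259 has a lone 0 h point at 14.62.

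The profiles of the 8 members make the contrast plain: tight treated groups for Bg02-08_J10_401_435 at 6 h, wide ones for the probes that follow the shared sample order. A further 2 members, CL140Contig1_674_708 and Bg03-03_O04_561_595, stayed well apart from the untreated leaves at both times. CL140Contig1_674_708 measured 11.67, 11.44 and 11.82 at sorbitol 0 h, 9.57, 9.67 and 9.86 at 6 h, and 10.42, 9.55 and 10.52 at 24 h. Bg03-03_O04_561_595 measured 10.66, 10.71 and 10.77 at 0 h, 8.70, 8.95 and 9.59 at 6 h, and 9.40, 8.96 and 9.42 at 24 h. Neither overlapped between treated and untreated leaves. They were singled out after their values were seen, from the 19 members that the rule kept whichever of the 18 samples was left out.

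The 3 members with the highest group means all stayed far above background. CL420Contig1_398_432 was saturated on sorbitol 0 h A, so its level there is a lower limit, and the other members had no saturated spot. CL420Contig1_398_432 measured 15.91, 15.42 and 15.64 at sorbitol 0 h, 14.92, 14.67 and 14.67 at 6 h, and 15.04, 14.18 and 14.27 at 24 h. Its NaCl samples ran from 15.06 to 15.86, and none was as low as the highest sorbitol-treated sample. CL49Contig1_177_211 measured 15.39, 15.35 and 14.61 at sorbitol 0 h, 14.01, 13.72 and 14.01 at 6 h, and 13.88, 13.09 and 13.56 at 24 h. Bg02-03_G09_139_173 measured 14.64, 14.19 and 14.97 at 0 h, 13.91, 13.50 and 13.82 at 6 h, and 13.91, 12.97 and 13.65 at 24 h. In these bright spots the treated samples kept clear of the untreated ones by group, with differences between -0.86 and -1.60, and without values at the floor.

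Under NaCl the members did not behave alike. Both NaCl differences lay within 0.5 of 0 in 76 members, and 18 were at least 0.5 higher at both times. At 6 h, 38 members were at least 0.5 above 0 h, and at 24 h 35 were. The members' upper quartile was 0.57 at 6 h and 0.53 at 24 h, against 0.47 and 0.42 over the probes at the level minimum. NaCl differences of -0.5 or lower had been removed by the rule, so these counts are not read as a trait of the members. The 3 members with the highest NaCl 24 h differences were Bg03-10_P04_257_291 (1.89), CL949Contig1_249_283 (1.38) and Bg02-06_M19_472_507 (1.18). Bg03-10_P04_257_291 measured 10.15, 8.45 and 7.76 at NaCl 0 h and 10.60, 10.90 and 10.52 at 24 h, with no overlap but a wide 0 h group. CL949Contig1_249_283 measured 10.20, 9.34 and 8.85 at NaCl 0 h and 12.48, 10.11 and 9.93 at 24 h, where A alone stood high. Bg02-06_M19_472_507 measured 11.09, 10.66 and 9.72 at 0 h and 11.20, 11.86 and 11.94 at 24 h, with sorbitol values of 11.44, 11.52 and 12.12 at 0 h, 8.56, 9.88 and 11.72 at 6 h, and 11.45, 11.33 and 8.50 at 24 h. Its sorbitol fall followed the shared sample order, and C at 6 h and A at 24 h lay within the untreated range.

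The members started higher in the sorbitol series than in the NaCl series. Before any treatment 114 of the 131 were higher in the sorbitol 0 h leaves than in the NaCl 0 h leaves, which held for 53.4% of the probes at the level minimum. The median gap was 0.50 (range -0.45 to 2.69), against 0.04 over those probes, and 22 members were 1 or more higher. Since sorbitol 0 h entered the rule as the reference, probes with high values there were favoured by the choice, and this gap was not tested. Against NaCl 0 h in its place, 107 members were below the reference at both sorbitol times and 52 were at least 0.7 below at both. Set against NaCl at the same hour, the members' median difference was -0.85 at 6 h and -1.11 at 24 h.

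The change from 6 h to 24 h was not itself a condition of the rule, but the rule bounded both group means that it compares. A member could rise late in sorbitol only as far as its 6 h difference lay beyond the fall threshold. The change was tested with limma in 1 model of all 18 samples, with Benjamini-Hochberg adjustment over 8642 probes. These probes were above the negative controls in at least 3 samples, and all 131 members were among them. The question is whether the fall deepened, since the rule itself limited how far it could ease. In sorbitol 4 members fell further, with 2.22% of all probes tested called lower, and 0 members rose, with 3.27% called higher. At an unadjusted p under 0.05, 17 members (13.0%) differed in either direction, against 16.8% of all probes. By size alone, 90 members had a lower mean at 24 h than at 6 h, 30 of them by 0.5 or more, 9 were higher by 0.5 or more, and 92 were within 0.5. The median was -0.15 (quartiles -0.42 and 0.04), against -0.02 (quartiles -0.35 and 0.28) over the probes at the level minimum. Because the rule bounded these changes, nothing is read from the counts by size. The absence of members that rose, and the shares set against all probes, are not read either.

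The 4 members that fell further were CL192Contig1_771_805, CL54Contig1_242_276, Bg02-10_N01_497_531 and Bg05-18_B05_17_51. The rule had used both group means that these 4 tests compare, so their p-values are those of chosen probes. CL192Contig1_771_805 fell by 2.34 (SE 0.46, limma adjusted p = 0.00248), with all 3 samples at 24 h below all 3 at 6 h, and the call held in 30 of 30 other settings. CL54Contig1_242_276 measured 13.69, 13.68 and 13.42 at sorbitol 0 h, 12.80, 12.38 and 12.44 at 6 h, and 12.02, 11.04 and 11.04 at 24 h. The groups did not overlap, and the late difference was -1.17 (SE 0.28, limma adjusted p = 0.0144). The call was kept in 24 of 30 other settings, and among single samples left out it missed the threshold without sorbitol 6 h A (limma adjusted p = 0.0512), 24 h B (0.092) or 24 h C (0.0924).

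Bg05-18_B05_17_51 measured 10.68, 10.65 and 10.66 at sorbitol 0 h, 9.94, 9.26 and 9.76 at 6 h, and 9.03, 8.55 and 8.82 at 24 h. It too went down in steps without overlap, with a late difference of -0.85 (SE 0.24, limma adjusted p = 0.0386). The call was kept in 21 of 30 other settings, and among single samples left out it was lost without sorbitol 6 h A (limma adjusted p = 0.12), 6 h C (0.126), 24 h B (0.178) or 24 h C (0.106). From spot medians its NaCl 6 h difference was -0.60, and the rule did not keep it. Bg02-10_N01_497_531 measured 10.90, 10.72 and 10.67 at 0 h, 9.25, 10.24 and 10.21 at 6 h, and 9.48, 8.73 and 8.22 at 24 h. Here A at 6 h lay below A at 24 h, so the late groups overlapped, and the difference of -1.09 (SE 0.32, limma adjusted p = 0.0475) passed the threshold in 7 of 29 other settings. Leaving out any 1 of 14 samples lost it, with a limma adjusted p from 0.0516 to 0.276, the highest without sorbitol 24 h C.

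In NaCl 2 members were called lower at 24 h than at 6 h, with 1.11% of all probes tested called lower, and 0 rose, with 1.70% called higher. At an unadjusted p under 0.05, 14 members (10.7%) differed, against 12.9% of all probes. The rule bounded the NaCl means too and limited a late fall, so nothing is read from these shares. Bg01-06_P19_305_340 measured 10.18, 8.85 and 9.93 at NaCl 0 h, 10.65, 12.06 and 10.99 at 6 h, and 8.61, 8.94 and 10.001 at 24 h. Every 6 h sample was above every 24 h sample, and the difference of -2.05 (SE 0.48, limma adjusted p = 0.0186) was kept in 26 of 29 other settings and lost without NaCl 6 h B (limma adjusted p = 0.145), 24 h A (0.0966) or 24 h B (0.0996). Its NaCl 6 h samples also lay above its NaCl 0 h samples, a difference that was not tested. In sorbitol this member measured 9.29, 9.53 and 8.97 at 0 h, 7.45, 8.998 and 8.58 at 6 h, and 8.60, 7.09 and 7.18 at 24 h. Only 2 of its 3 samples at sorbitol 6 h and 1 of 3 at sorbitol 24 h were above the negative controls.

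The other, Bg05-07_H14_769_803, measured 6.78, 7.43 and 6.68 at NaCl 0 h, 8.97, 12.11 and 12.42 at 6 h, and 7.46, 8.12 and 7.01 at 24 h. It was above the negative controls only at NaCl 6 h and in sorbitol 0 h C, and its level at 6 h was at least 6.79-fold higher than at 24 h in NaCl. It reached the level minimum only through NaCl 6 h, so a high value there was a condition of its being a member, and nothing is read from its test. Its sorbitol fall lies below the background level and is no measured change. On NaCl 6 h C its mean intensity was 2751 and its median 23, and on NaCl 6 h B 9519 and 1617, so that the means lay far above the medians. From spot medians the late NaCl difference was -0.86, and the rule did not keep the probe.

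Whether the late change differed between sorbitol and NaCl was tested in the same model. The rule bounded the means compared here as well, so nothing is read from the shares set against all probes. It was lower in sorbitol in 1 member, with 0.150% of all probes tested called so, and higher in 0 members, with 0.474% called higher; 16 members (12.2%) passed an unadjusted p under 0.05, against 15.96% of all probes. The member was CL192Contig1_771_805, with a difference of -2.82 (SE 0.65, limma adjusted p = 0.049). Its mean change from 6 h to 24 h was -2.34 in sorbitol, while the NaCl mean was 0.48 higher at 24 h than at 6 h. Over the other settings the value stayed between -3.61 and -2.23 and the limma adjusted p between 0.000603 and 0.27, and the call was kept in 7 of 30. Leaving out any 1 of 16 samples lost the call (limma adjusted p from 0.0517 to 0.161), and it held without NaCl 0 h C or sorbitol 24 h A. These p-values are those of a probe chosen on the group means compared.

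At least 20 consecutive bases were shared with another probe by 12 members, which gave 13 pairs. In 2 pairs both probes were members. CL657Contig1_544_578 and Bg05-20_P14_544_578 have 32 bases in common after a single substitution, A3G, counted from the first base of the CL657 probe. The first measured 12.39, 11.99 and 11.77 at sorbitol 0 h, 10.77, 9.83 and 10.15 at 6 h, and 11.36, 10.61 and 11.14 at 24 h. The other measured 12.59, 12.31 and 12.24, then 10.96, 10.37 and 10.84, and then 11.53, 11.10 and 11.61. Both separate spots fell by similar amounts at 6 h (-1.80 and -1.66) and lay nearer to 0 h at 24 h (-1.01 and -0.96). The probes Bg03-07_M23_378_412 and CL635Contig1_386_420, with 33 bases in common, differed from 0 h by -1.07 and -0.71 at 6 h and by -1.21 and -0.96 at 24 h. As members, the probes of both pairs had to differ by -0.7 or lower at both times, so nothing is read from their shared falls.

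The other 11 partner probes were those that the rule did not keep, so they are not an unselected set. They were read on the same arrays from the same RNA as the members. At both times 8 of the 11 were below 0 h, and 1 met both sorbitol thresholds. The share of all probes below 0 h at both times is not given here, so nothing is read from the 8. Some of the 11 are partners of the same member, so they are not 11 separate cases. In the limma fit 4 of the 11 were called lower in sorbitol at 6 h or 24 h; of all probes tested 1.39% were called lower at 6 h and 4.65% at 24 h. The count was 1 or 2 without sorbitol 0 h A (2), 0 h B (1), 24 h B (2) or 24 h C (2), and 1 without both sorbitol 6 h A and 24 h C.

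CL805Contig1_486_520 carries the same 35 letters as the member Bg02-07_B21_486_520. It measured 10.02, 9.85 and 10.15 at sorbitol 0 h, 10.18, 9.83 and 9.94 at 6 h, and 9.03, 8.55 and 8.60 at 24 h. Its 24 h difference was -1.28 (SE 0.25, limma adjusted p = 0.00158), a call that held in 30 of 30 other settings, and its 6 h difference was -0.02. The member measured 9.64, 10.08 and 9.92 at 0 h, 7.46, 9.13 and 9.53 at 6 h, and 8.39, 7.68 and 7.18 at 24 h, with differences of -1.17 and -2.13. Both spots were lower at 24 h, whereas at 6 h only the member was, with A far below B and C. At 24 h only 1 of the member's 3 samples was above the negative controls. Its value of 7.18 is an intensity of 0, so its 24 h difference rests largely on background. The gap between spots was taken over 39 pairs of probes with identical letters, both at the level minimum. It had a median of 0.143 at 6 h and 0.207 at 24 h, and a highest value of 1.28 and 1.15. The 6 h gap here was among the wide ones, and the 24 h gap was above the median.

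**Figure D4:**
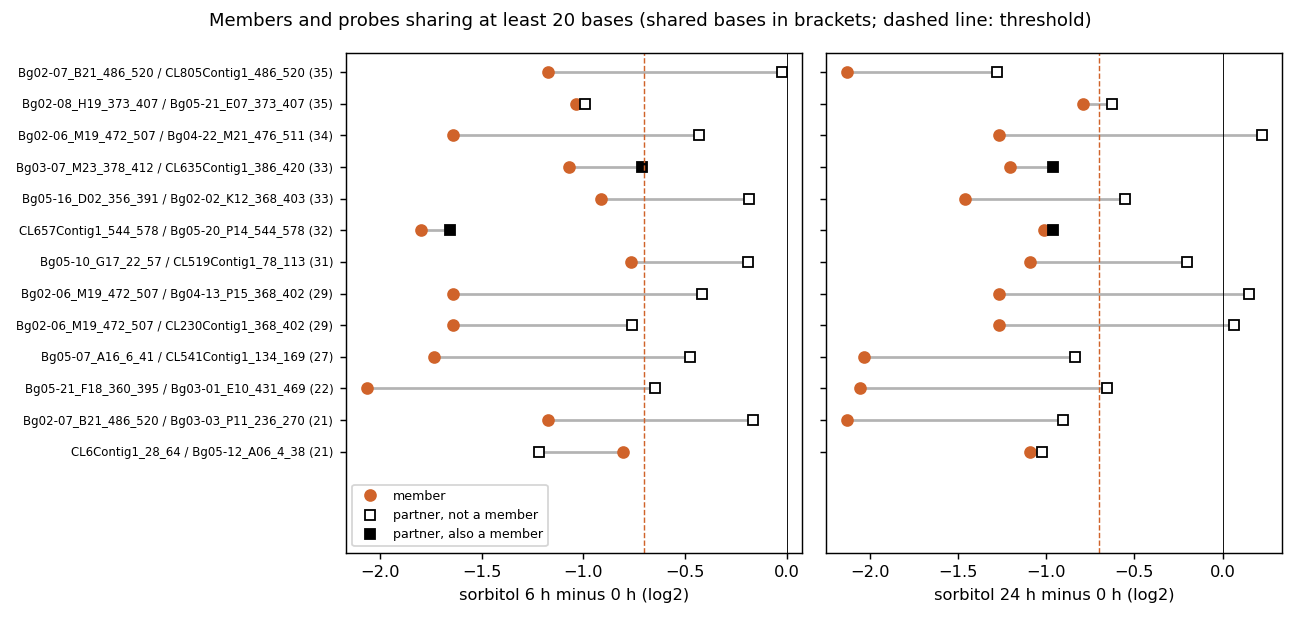
Difference from sorbitol 0 h (log2, horizontal axes) at 6 h (left) and 24 h (right) for each member (orange point) and the probe that shares at least 20 bases with it (square, filled where it is a member too), 1 row per pair with the number of shared bases in brackets. The dashed line is the threshold of -0.7; most open squares lie to the right of their orange point, and the 3 partners of Bg02-06_M19_472_507 are above 0 at 24 h.

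The plot of partner probes shows that partners were mostly nearer to 0 than the member. The members had been chosen for low values, and the partners outside the member pairs had failed the rule. Both choices favour such a gap, and nothing is read from it. The identical probes Bg02-08_H19_373_407 and Bg05-21_E07_373_407 differed from 0 h by -1.04 and -0.99 at 6 h and by -0.79 and -0.63 at 24 h, and only the former met the thresholds. CL541Contig1_134_169, the partner of Bg05-07_A16_6_41 by 27 bases, had a 24 h difference of -0.83 (SE 0.26, limma adjusted p = 0.0436), which passed in 14 of 30 other settings. It was lost with any 1 of 9 samples left out, with a limma adjusted p from 0.0501 to 0.173, the highest of these without sorbitol 24 h B.

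The 2 remaining called partners were dim. Bg05-12_A06_4_38, with 21 bases in common with CL6Contig1_28_64, measured 8.32, 8.82 and 8.60 at sorbitol 0 h, 7.13, 7.64 and 7.31 at 6 h, and 8.04, 7.45 and 7.18 at 24 h. No treated sample was above the negative controls, and the bound for its fall was 1.39-fold at 6 h and 1.20-fold at 24 h. Only 2 of its sorbitol 0 h samples were above them, so the bound is not a firm lower limit. The tests belong to the differences as read and not to the bound. These were -1.22 at 6 h (limma adjusted p = 0.0127) and -1.02 at 24 h (limma adjusted p = 0.0208). Bg03-03_P11_236_270, which shares 21 bases with Bg02-07_B21_486_520, exceeded the negative controls on 1 array of sorbitol 0 h and on no array of sorbitol 24 h. The bound for its fall was 1.01-fold. Its test belongs to the difference of -0.90 as read (limma adjusted p = 0.0283), which lies mostly at background. Both 24 h calls were lost without sorbitol 24 h B (limma adjusted p = 0.0794 and 0.0916), 24 h C (0.123 and 0.136), 0 h B (0.0934 and 0.0867) or 0 h C (0.0549 and 0.0707), and that of Bg03-03_P11_236_270 without 0 h A (0.0654). Over all other settings the 24 h calls were kept in 21 of 29 for Bg05-12_A06_4_38 and in 19 of 29 for Bg03-03_P11_236_270. The 6 h call of Bg05-12_A06_4_38 was kept in 23 of 29, and was lost without sorbitol 6 h A (limma adjusted p = 0.0689) or 0 h B (0.075).

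Bg02-06_M19_472_507 had 3 partners that went against it at 24 h. Its difference was -1.27, and those of Bg04-22_M21_476_511, Bg04-13_P15_368_402 and CL230Contig1_368_402 were 0.22, 0.15 and 0.06. At 6 h the member differed by -1.64 and the partners by -0.43, -0.41 and -0.76. None of these partner differences passed the limma threshold. Other contigs of the same cluster number were mixed as well: CL136Contig2_949_983 differed by -0.67 and -1.76 and CL46Contig1_146_180 by -0.53 and -0.94, both lower at both times, whereas CL6Contig2_435_473 differed by -0.13 and 0.09. CL2Contig2_376_410, CL6Contig3_1095_1130 and CL6Contig5_238_274 were saturated on 7, 9 and 10 of the 18 arrays, and CL6Contig4_255_290 did not reach the level minimum, so their differences are not set against those of the members.

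A reading in samples the rule had not seen was obtained by applying the rule to 2 replicate letters and taking the differences in the third. On B and C it kept 121 probes, 79 of them members. In the A samples these had median differences of -0.81 at 6 h and -0.57 at 24 h, against -0.01 and -0.08 over the probes at the level minimum. On A and C it kept 140 probes (94 members), with -0.64 and -0.95 in the B samples. On A and B it kept 99 probes (64 members), with -0.50 and -1.20 in the C samples. For each left-out letter both medians lay below 0. Each reading takes only the sample of that letter in each group, and all arrays had been normalized together. The C reading includes sorbitol 24 h C, where 45 members were not above the negative controls and 24 had an intensity of 0. No reading without that sample was made.

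**Figure D5:**
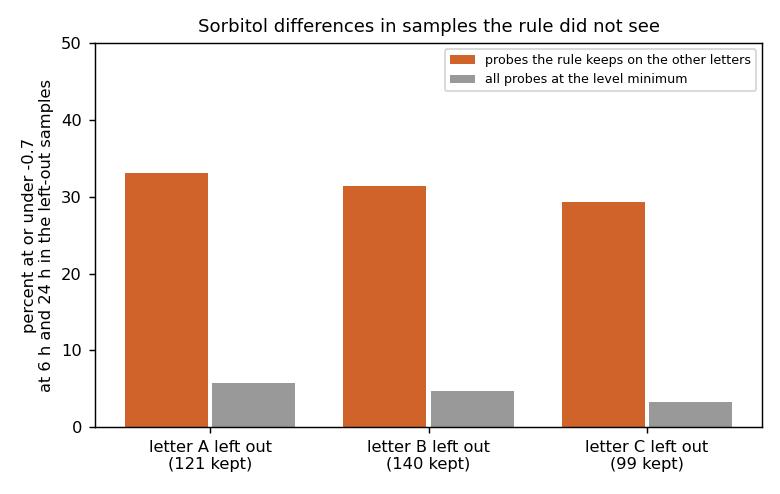
Percent of probes (vertical axis, from 0) whose sorbitol differences were -0.7 or lower at both 6 h and 24 h in the samples of the left-out letter, for probes the rule kept on the other letters (orange) and for all probes at the level minimum (grey). The orange bars reach 33.1%, 31.4% and 29.3% for A, B and C, and the grey bars 5.80%, 4.78% and 3.29%.

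In the left-out samples both sorbitol differences were -0.7 or lower in 40 of the 121 probes for A (33.1%, against 5.80% of the probes at the level minimum), 44 of 140 for B (31.4% against 4.78%) and 29 of 99 for C (29.3% against 3.29%). The bars of the left-out letters show this share as nearly level between the letters. Below 0 h at both times were 75.2%, 71.4% and 83.8%, against 37.3%, 29.5% and 30.4%. All 4 conditions on the differences were met again by 9.92%, 25% and 19.2% of the probes kept, against 1.51%, 2.96% and 1.61%. These shares are a description, since probes on the same arrays are not independent.

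The share of members differed between the clone sources on the array, as a description with no test. Contigs supplied 41 of the 131 (31.3%), against 15.8% of the probes at the level minimum, and single clones 90. Of the contig probes at that level 5.02% were members. Among single clones the share was 2.94% for identifiers starting with Bg01, 3.43% for Bg02, 2.55% for Bg03, 0.978% for Bg04 and 2.40% for Bg05. In base composition the members did not stand out: the median GC content was 48.6% in the members and in all probes at the level minimum, and 84.7% of the members were 35 bases long, against 79.4%. The probes began at a median of base 309 in their clone or contig (quartiles 154 and 544), against 273 (113 and 468).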

How the data were processed

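Per the labels' protocols, 1 µg of total RNA from each leaf sample was amplified to cRNA and labelled with Cy5 for 1-colour arrays. The deposited scanner files give each spot's foreground mean and median intensity, unlogged and without a local background, per the file headers. Median probe intensity ran from 52.9 to 1729 per array. The foreground mean plus 50 was log2 transformed and quantile-normalized over the 11997 mangrove probes of 18 arrays. A probe was above background where its mean exceeded the 95th percentile of 70 negative controls. Group means were fitted with limma 3.58.1 (R 4.3.3; lmFit, eBayes, 12 residual degrees of freedom) and tested on simulated data; figures used matplotlib 3.10.9. The deposited table of the authors' processed intensity served only as an alternative, since 3 of its columns are on another scale. Members, lists and tests were chosen with earlier results of these data known. Named are the 8 members with the lowest mean sorbitol difference, those called for a late change, the 3 with the highest NaCl 24 h difference, the 3 with the highest group mean, up to 8 with a partner probe and those nearest the thresholds; further ones were chosen after their values were seen, as were the runs without sorbitol 6 h A and 24 h C together. No pathway list was used.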

Additional observations from a re-analysis of the deposited data

Results flagged for a closer look

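CL192Contig1_771_805 was flagged because its change from 6 h to 24 h differed between the treatments by limma's test of the difference itself: the sorbitol change minus the NaCl change was -2.82 on the log2 scale (SE 0.65, limma adjusted p = 0.049). The call was kept in 7 of 30 other settings. The rule had used the group means that this test compares. The groups of 3 samples are too small for a search for outlying samples.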

How the results depend on the processing

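The rule kept 90 to 164 probes when 1 sample was left out, 76 with detection in all 18 samples required (fewer probes considered), 64 with both sorbitol differences at -1 or lower (a stricter threshold) and 89 without both sorbitol 6 h A and 24 h C. Of the members, 71 were kept without the 4 arrays of lowest signal, 60 when the 0 h groups were pooled, and 110 with median scaling. That scaling shifted the probes at the level minimum, in the median, by 0.15 and 0.05 in sorbitol and 0.27 and 0.26 in NaCl at 6 h and 24 h. Members called for sorbitol 24 h against 6 h (4) numbered 1 with median scaling, 14 without the 4 arrays of lowest signal and 1 to 9 with 1 sample left out: 9 without sorbitol 6 h A, 2 without 6 h C, 1 without 24 h B or 24 h C. For NaCl (2) they numbered 1 with foreground medians, 4 without the 4 lowest-signal arrays and 1 to 4 with 1 sample left out. For the difference of late changes (1) they numbered 0 with normexp, median scaling, a constant of 16, no filter, a trended and robust eBayes, without the 4 lowest-signal arrays and without both sorbitol samples, and 0 to 2 with 1 sample left out. The partner probes called (4) numbered 1 with median scaling, 2 with foreground medians, 2 with detection in all 18 samples, 1 without the 4 lowest-signal arrays, 1 with the authors' deposited table, 1 without both sorbitol samples and 1 to 4 with 1 sample left out. The cause of these moves was not tested. Over all probes, calls for the sorbitol late change (475) numbered 234 with median scaling, 259 without the 4 lowest-signal arrays and 285 to 553 with 1 sample left out, for the NaCl late change (243) 82 with median scaling and 122 to 272 with 1 sample left out, and for the difference (54) 16 without the 4 lowest-signal arrays, 18 with median scaling, 34 with detection in all 18 samples and 21 to 140 with 1 sample left out. With the replicate letter as a block (replicate block) the members called numbered 5, 3 and 4 for these 3 tests, and 136 probes in all for the difference; only 25 of 45 same-letter pairs had a correlation of deviations over 0.1 (range -0.29 to 0.48), so the letters were not taken as pairs, although 13 of 18 samples correlated best with their own letter, which is a hint of pairing from the data. Of the single-probe tests under other settings, 249 kept the call, 105 lost it and 0 changed sign. Normexp returned values above those measured on 6 arrays, 4 of them those of lowest signal, and the foreground was used there. The repeat array differed from its first array by 0.18 (SD 0.50) over the members, a difference between 2 spots of 1 RNA seen in 1 pair of arrays; low signal on 4 arrays limits what the dim members can show.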
